A study of Mus musculus with 4 samples.

Results

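Glycolysis splits glucose into pyruvate in the cytosol through a fixed chain of enzymes, and lactate dehydrogenase then turns pyruvate into lactate. Hexokinases trap glucose in the cell, phosphofructokinase is the main regulated step, and the later enzymes make ATP and NADH. Early retinal progenitors are known for high use of glucose with release of lactate. The glycolytic enzyme genes described here were taken by name: Hk1, Hk2, Pfkl, Pfkp, Aldoa, Gapdh, Pgk1, Eno1, Pkm and Ldha. They were 10 of 20001 genes with a listed position, and they held 835 of the 833043 positions listed inside genes and of the 1076788 positions listed in all.

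The measurement was GLORI, a chemical sequencing method for N6-methyladenosine (m6A), the methyl mark that the METTL3 complex places on adenosines of mRNA. In GLORI, unmethylated adenosines are deaminated and read as G, whereas methylated ones still read as A. The m6A level of a position is therefore its A reads divided by its A and G reads, and the conversion rate of a gene is the share of its adenosines that were read as G. The samples were mouse retinal organoids at day 6, made from Rx:GFP cells whose own Mettl3 gene carries an FKBP12F36V-HA tag at its 3′ coding end, and polyA RNA was sequenced. All 4 libraries shared this line, the tag, and a GMEM medium with KSR and AGN. The 2 untreated libraries were taken at 0 h, and the 2 dTAG13 libraries after 8 h with 125 nM dTAG13, a degrader that acts on the tagged protein. The genotype labels disagree among the 4 samples on which Mettl gene carries the tag, but the growth protocol and the series' design text give Mettl3 for all. These tables hold RNA values alone, so the loss of METTL3 protein was not checked here. The labels do not say how many clones the line represents, nor whether the replicates were separate cultures, so the p-values measure the spread between these libraries, which may be technical.

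Each library has a table of positions that passed the authors' tests. The values show its limits: at least 15 reads, at least 5 A reads, a level of at least 10%, and the authors' adjusted p of at most 0.00401. A position that is absent from a table has no value there, so it may lie below a limit or may not have been covered. The untreated libraries listed 260741 and 272174 positions inside genes and the dTAG13 libraries 178739 and 201935, with 30102136 to 54905380 reads at listed positions per library. Among the defining genes of retinal progenitors, 7 of 7 had a listed position in every library, with summed gene coverages of 2630 and 3106 untreated and 1950 and 2802 with dTAG13. The pluripotency genes Pou5f1, Nanog and Zfp42 were also listed in every library, with summed coverages of 341 and 398 against 332 and 356. Of 3 neuron genes only Tubb3 was listed in every library, and 0 of 3 mesoderm and blood genes were listed in all. Because the organoids were measured in bulk, fewer cells of a type and less RNA per cell cannot be told apart.

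The glycolytic genes were listed at about as many positions after dTAG13 as before it, but at fewer high-level ones. The untreated libraries listed 276 and 218 positions of these genes, and the dTAG13 libraries 218 and 226. The means were 247 ± 41.0 and 222 ± 5.66 (SD, n = 2 each), a ratio of 0.899, while the ratio for all positions inside genes was 0.714. The groups touched at 218 (exact permutation p = 1.0, two-sided). Of 2 against 2 libraries, the smallest p this test allows is 0.33, so no count in this design can pass 0.05. Set against all positions inside genes, the glycolytic share was 0.106% and 0.0801% untreated and 0.122% and 0.112% with dTAG13. On that scale the ratio was 1.26, the other way round from the raw count, with no overlap and an exact permutation p of 0.33.

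Positions with a level of 40% or more numbered 100 and 71 in the untreated libraries and 52 and 56 with dTAG13. Both dTAG13 libraries lay below both untreated ones. The means were 85.5 ± 20.5 and 54 ± 2.83 (SD, n = 2 each), a ratio of 0.632 with an exact permutation p of 0.33, against a ratio of 0.772 over all genes. Without untreated replicate 1 the glycolytic ratio was 0.761, so its distance from the value over all genes rests on that library. At 90% or more the counts were 42 and 18 untreated and 25 and 20 with dTAG13, and the groups overlapped. The share of listed glycolytic positions at 40% or more was 36.2% and 32.6% untreated and 23.9% and 24.8% with dTAG13. Over all genes the same share was 36.6% and 34.8% untreated and 38.3% and 38.8% with dTAG13. The glycolytic share was thus lower in both dTAG13 libraries, while that of all genes was higher in both. The median level followed the same order, at 22.0% and 24.4% untreated and 18.3% and 20.4% with dTAG13 in the glycolytic genes, against 28.2% and 27.0% and then 29.3% in both over all genes. The positions behind the glycolytic medians had a median of 110.0 and 105.5 reads untreated and 136.5 and 157.5 with dTAG13. Depth at listed positions thus moved with the group. The mix of genes moved too: Hk1, Hk2 and Pfkp, grouped after the values were seen, held 133 and 124 positions untreated and 77 and 98 with dTAG13. The other 7 genes held 143 and 94, then 141 and 128. Within single genes, the median level was higher in both dTAG13 libraries for Hk1, Pfkl, Eno1 and Ldha. It was lower in both for Pkm alone and overlapped for the rest. No share over all genes was computed for these medians, so their directions are not read as particular to these genes. The parts of depth and gene mix in the shift of levels were not tested.

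**Figure D1:**
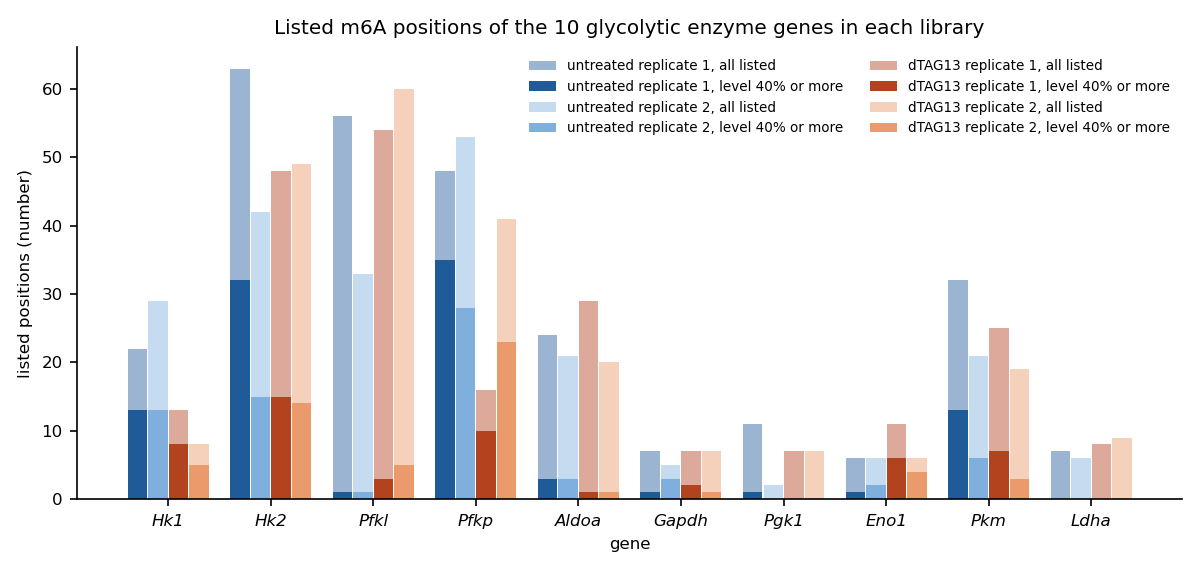
Number of listed positions (vertical axis) of each glycolytic gene (horizontal axis) in each library, with the positions at a level of 40% or more in the darker part of each bar. Hk1 and Pfkp stand lower in both dTAG13 libraries, whereas Pfkl, Aldoa and Ldha do not, and Ldha has no darker part in any library.

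Gene by gene, the number of listed positions was lower in both dTAG13 libraries than in both untreated ones for 2 of 10 genes, Hk1 and Pfkp. Over the 12520 genes listed in every library this held for 44.6%. It was higher in both for 1 of 10, Ldha, against 4.53% of all genes. Positions at 40% or more were fewer in both dTAG13 libraries for 3 of 10 genes, Hk1, Pfkp and Aldoa, against 24.9% of all genes. They were more numerous in both for 2 of 10, Pfkl and Eno1, against 7.2%. With only 10 members, none of these counts is read as a departure from the background.

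Most listings did not recur. Among single positions, those named here beyond the ones listed in every library and the 4 shared within a group at a mean level of 40% or more were chosen after their values were seen. A single library listed 745 of the 835 positions (89.2%), against 91.4% over all genes. A further 80 recurred in 2 libraries, 7 in 3 and 3 in each of the 4. Both untreated libraries shared 23 glycolytic positions and both dTAG13 libraries shared 24, a ratio of 1.04, against 25086 and 11156 over all genes, a ratio of 0.445. An untreated and a dTAG13 library shared 16 to 23. A mean level of 40% or more was found at 5 of the 23 positions shared by the untreated libraries (21.7%) and at 2 of the 24 shared by the dTAG13 libraries (8.33%), against 36.5% and 20.7% over all genes. The difference was not tested, and some of the 5 passed 40% through 1 replicate.

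Recovery of untreated positions gave a background for the loss of listings. Of 209 glycolytic positions with 50 or more reads in untreated replicate 1, the other untreated library listed 22 (10.5%; 95% Wilson interval 7.05% to 15.4%), dTAG13 replicate 1 also 22, and dTAG13 replicate 2 listed 16 (7.66%; 4.77% to 12.1%). Of 167 such positions in untreated replicate 2, untreated replicate 1 listed 22 (13.2%; 8.86% to 19.1%), dTAG13 replicate 1 listed 13 (7.78%; 4.61% to 12.9%) and dTAG13 replicate 2 listed 15 (8.98%; 5.52% to 14.3%). These intervals cover counting error only, and they overlap throughout. Recovery with dTAG13 was 0.750 of that between the untreated libraries, as a mean over the 2 reference libraries, against 0.557 over all genes. Over all genes the untreated libraries recovered 11.1% and 10.7% of each other's positions, and the dTAG13 libraries 5.74% to 6.38%. At a level of 40% or more, 6 of 47 and 3 of 36 glycolytic positions were recovered between the untreated libraries, against 2, 0, 0 and 2 with dTAG13, a ratio of 0.250. Over all genes the ratio at that level was 0.297, with 14.1% and 13.8% recovered between the untreated libraries and 3.88% to 4.43% with dTAG13, so the glycolytic value lay near the background.

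Hexokinases add the first phosphate to glucose. Hk1, the constitutive form found on mitochondria in most tissues, lies on the minus strand of chromosome 10, with 64 listed positions between 62104952 and 62175863. It had 22 and 29 listed positions in the untreated libraries and 13 and 8 with dTAG13, of which 13 and 13, then 8 and 5, were at 40% or more. The groups did not overlap in either count, with exact permutation p = 0.33 for each. The median level was 49.4% and 35.4% untreated and 94.7% and 80.7% with dTAG13. The positions at 90% or more with dTAG13, 7 of 13 and 4 of 8, were each listed in 1 dTAG13 library and in no untreated library, several of them on 17 to 42 reads. The 3 positions that a dTAG13 library and an untreated library both listed were lower, between 15.1% and 44.4% with dTAG13. Among the positions at 90% or more with at least 50 reads, chosen after their values were seen, none recurred. Position 62105336 read A in 100% of 185 reads in untreated replicate 2, and position 62120568 in 100% of 130 reads in dTAG13 replicate 2, and each was listed in that library alone. Of its 64 positions 57 were listed in 1 library, 4 were shared by both untreated libraries and by no dTAG13 library, and 1, position 62105280, was listed in 3 libraries. There the level was 36.7% (11 of 30 reads) in untreated replicate 2, 15.1% (13 of 86) in dTAG13 replicate 1 and 21.5% (79 of 367) in dTAG13 replicate 2.

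Hk2, the inducible hexokinase tied to growth and tumour metabolism, had the most listed positions of the 10 genes, 188 between 82702097 and 82751360 on the minus strand of chromosome 6. They were concentrated at the 3′ end of the listed span, with 111 (59.0%) within 2500 bases of the 3′-most one. Inside that stretch 19 and 7 positions were at 40% or more in the untreated libraries and 8 and 5 with dTAG13, so the groups met between 7 and 8. The whole gene was listed at 63 and 42 positions untreated and 48 and 49 with dTAG13, and at 40% or more at 32 and 15 against 15 and 14. Untreated replicate 1 stood apart, and untreated replicate 2 matched the dTAG13 libraries.

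Position 82704027 of Hk2 was at 60.6% (194 of 320 reads) in untreated replicate 1 and 24.2% (64 of 264) in untreated replicate 2, and neither dTAG13 library listed it. Position 82704272 was at 71.4% (95 of 133 reads) and 98.2% (54 of 55), and was likewise listed in neither dTAG13 library. These were the Hk2 positions shared by both libraries of a group with at least 50 reads in each and a mean level of 40% or more. At both, the 95% Wilson intervals of the 2 untreated libraries did not overlap, so the replicates differed by more than read counting allows. A further position, 82702941, chosen after its values were seen, was at 99.5% (221 of 222 reads) in untreated replicate 2 and 13.6% (49 of 359) in dTAG13 replicate 2 and was not listed in the other 2 libraries. None of the 188 positions was listed in more than 2 libraries, so no Hk2 position could be tested.

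Phosphofructokinase commits sugar to glycolysis, and its liver-type and platelet-type subunits, Pfkl and Pfkp, differed in their listed positions. Pfkl, on the minus strand of chromosome 10 from 77822897 to 77845560, had 176 positions, nearly all low. Its median level was 14.7% and 12.5% untreated and 16.6% and 18.7% with dTAG13, and it was listed at 56 and 33 positions untreated and 54 and 60 with dTAG13. Only 1 position in each untreated library was at 40% or more, against 3 and 5 with dTAG13. Both libraries of the untreated group shared 4 positions and both of the dTAG13 group shared 7, with no position in 3 or more libraries. The deepest shared one, 77823866, was at 10.9% (79 of 725 reads) and 13.7% (186 of 1357) with dTAG13 and was listed in neither untreated library. Those levels sit just above the listing limit of 10%.

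Pfkp, on the minus strand of chromosome 13 from 6631319 to 6698640, had 154 positions, of which 150 (97.4%) were listed in 1 library. It was listed at 48 and 53 positions untreated and 16 and 41 with dTAG13, and at 35 and 28 against 10 and 23 positions at 40% or more. Both counts separated the groups, although dTAG13 replicate 2 lay closer to the untreated libraries than to its own replicate. Its median level was 54.2% and 40.8% untreated and 50.9% and 43.2% with dTAG13, so the levels of the listed positions overlapped. Untreated, its listed positions had a median of 49 and 60 reads, against 337 and 413 for Pfkl. The part of depth in the contrast between Pfkl and Pfkp was not tested. Position 6632494, shared by the untreated libraries alone, was at 19.8% (55 of 278 reads) in replicate 1 and 76.5% (117 of 153) in replicate 2. Position 6631483, chosen after its values were seen, was at 47.4% (64 of 135 reads) in untreated replicate 2 and 99.4% (156 of 157) in dTAG13 replicate 2. It was listed in no other library.

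Hk1, Hk2 and Pfkp together held most of the high-level positions, a grouping made after the values were seen. They accounted for 80 of 100 and 56 of 71 positions at 40% or more in the untreated libraries and for 33 of 52 and 42 of 56 with dTAG13. The other 7 genes held 20 and 15 untreated and 19 and 14 with dTAG13, and their members differed: Aldoa was lower and Pfkl and Eno1 higher in both dTAG13 libraries. Of the former 3, the count of Hk2 was higher in untreated replicate 1 alone.

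**Figure D2:**
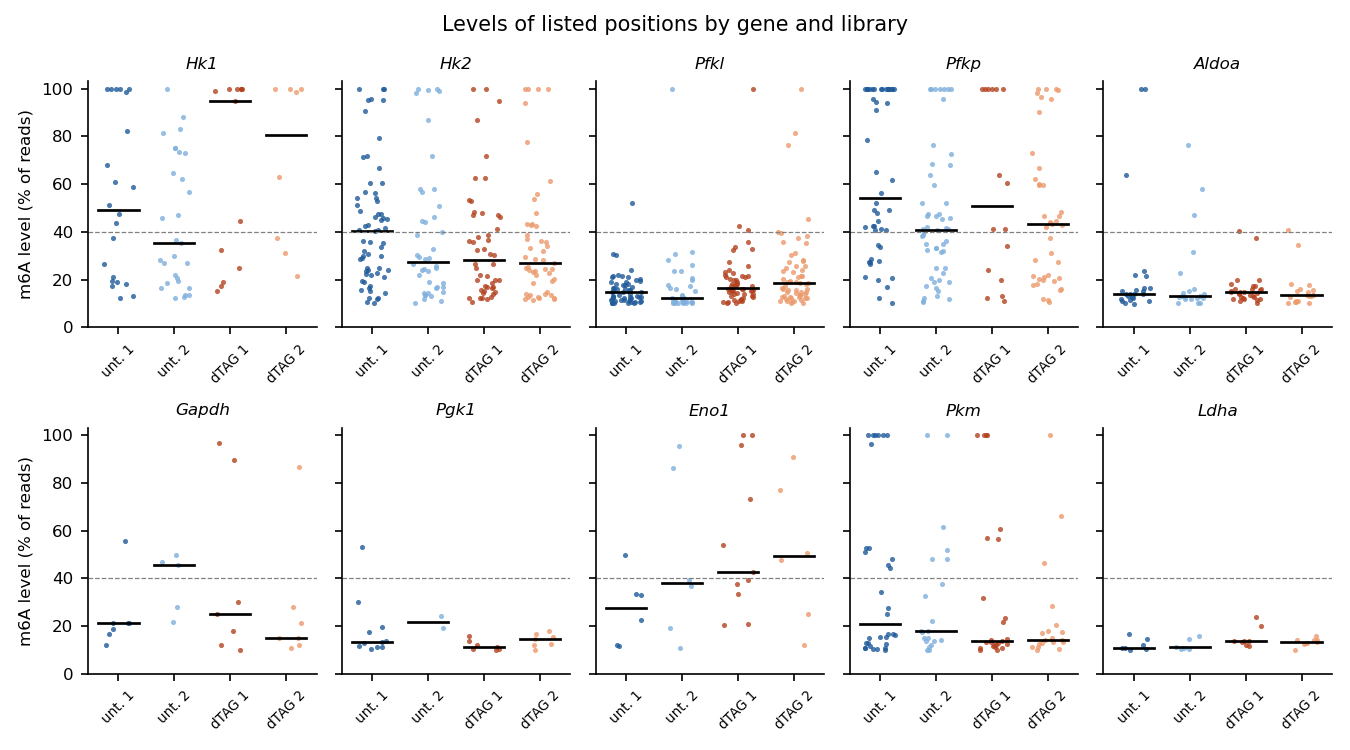
m6A level in percent (vertical axis) of every listed position of each glycolytic gene in each library (unt., untreated; dTAG, dTAG13; replicates 1 and 2), with the median as a black bar and 40% as a dashed line. Levels of Hk1, Hk2, Pfkl, Pfkp, Aldoa, Eno1 and Pkm reach 100% in at least 1 library, whereas all those of Ldha are below 24%.

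Aldoa encodes aldolase A, which cleaves fructose bisphosphate into the triose phosphates, and lies on the minus strand of chromosome 7 with 74 positions between 126394406 and 126400134. The untreated libraries listed it at 24 and 21 positions and the dTAG13 libraries at 29 and 20, with median levels of 13.9% and 13.3% against 14.7% and 13.7%. Positions at 40% or more numbered 3 in each untreated library and 1 in each dTAG13 library. Its position 126394434 was listed in all 4 libraries, at 23.5% (211 of 898 reads) and 12.7% (163 of 1282) untreated and 19.7% (123 of 623) and 13.0% (45 of 347) with dTAG13. The 2 groups overlapped, and in each the first replicate was the higher. Their means were 18.1% ± 7.62 and 16.4% ± 4.79 (SD, n = 2 each). The deepest Aldoa position, 126398233, was listed with dTAG13 alone, at 11.1% (574 of 5162 reads) and 13.0% (915 of 7061); it was chosen after its values were seen.

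Gapdh, the dehydrogenase that makes NADH, lies on the minus strand of chromosome 6 with 23 positions between 125138905 and 125140371. The untreated libraries gave 7 and 5 of them, and the dTAG13 libraries 7 each. Position 125140371, the only one listed in 3 libraries, held its level closely, at 12.2% (473 of 3890 reads) in untreated replicate 1, 11.97% (190 of 1587) in dTAG13 replicate 1 and 12.2% (426 of 3487) in dTAG13 replicate 2. It was not listed in untreated replicate 2.

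Pgk1, the kinase that makes the first ATP of the pathway, is on the plus strand of chromosome X, with 23 positions between 105230785 and 105247294. It was listed at 11 and 2 positions untreated and at 7 in each dTAG13 library. Its deepest position, 105247088, chosen after its values were seen, was at 17.6% (1110 of 6310 reads) and 19.3% (1232 of 6371) in the untreated libraries and was listed in neither dTAG13 library. The nearest listed positions there were 157 bases away with 4386 reads at a level of 11.2%, and 171 bases away with 1540 reads at 10.1%. Reads were thus present nearby in both dTAG13 libraries, but the level at the position itself is not given. Position 105247294 followed the same pattern of listing, at 53.3% (64 of 120 reads) and 24.3% (73 of 300) untreated.

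Eno1 encodes enolase 1, which makes phosphoenolpyruvate, and lies on the plus strand of chromosome 4 with 27 positions between 150321683 and 150333221. It was listed at 6 positions in each untreated library and at 11 and 6 with dTAG13, of which 1 and 2, then 6 and 4, were at 40% or more. No position was shared by both libraries of either group. Depth varied between libraries, with a median of 140.0 and 27 reads per listed position untreated and 26 and 80.5 with dTAG13.

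Pkm encodes the muscle-type pyruvate kinase, which makes ATP and pyruvate, and lies on the plus strand of chromosome 9 with 83 positions between 59563861 and 59586650. Listings numbered 32 and 21 untreated and 25 and 19 with dTAG13, of which 13 and 6, then 7 and 3, were at 40% or more, so the groups overlapped. Every one of these high positions lay more than 2500 bases from the 3′-most listed position. Position 59586623, close to the 3′ end of the listed span, was at 13.1% (301 of 2305 reads) and 14.9% (430 of 2884) untreated and 13.9% (230 of 1660) and 18.2% (292 of 1606) with dTAG13. The means were 13.98% ± 1.31 and 16.0% ± 3.06 (SD, n = 2 each), and the groups overlapped. Position 59572613 was listed in 3 libraries at 12.7% (633 of 5002 reads), 14.1% (786 of 5591) and, in dTAG13 replicate 2, 14.2% (514 of 3614).

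Pkm position 59563924 was listed with dTAG13 alone. Its level was 57.0% (130 of 228 reads) and 66.2% (157 of 237) in the 2 dTAG13 libraries, and their intervals overlapped. It was the only glycolytic position shared by both dTAG13 libraries with 50 or more reads in each and a mean level of 40% or more.

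Ldha, the subunit of lactate dehydrogenase that favours lactate, lies on the plus strand of chromosome 7 with 23 positions between 46495328 and 46505047. It was listed at 7 and 6 positions untreated and 8 and 9 with dTAG13, all of them low: 0 were at 40% or more in any library, and the highest was 23.8%. Position 46497102 was the best covered of the positions listed in every library, at 14.4% (398 of 2760 reads) and 14.8% (455 of 3072) untreated and 13.7% (216 of 1579) and 13.5% (329 of 2445) with dTAG13. Both dTAG13 libraries lay below both untreated ones, at means of 13.6% ± 0.158 and 14.6% ± 0.276 (SD, n = 2 each), a difference of -1.05 percentage points.

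**Figure D3:**
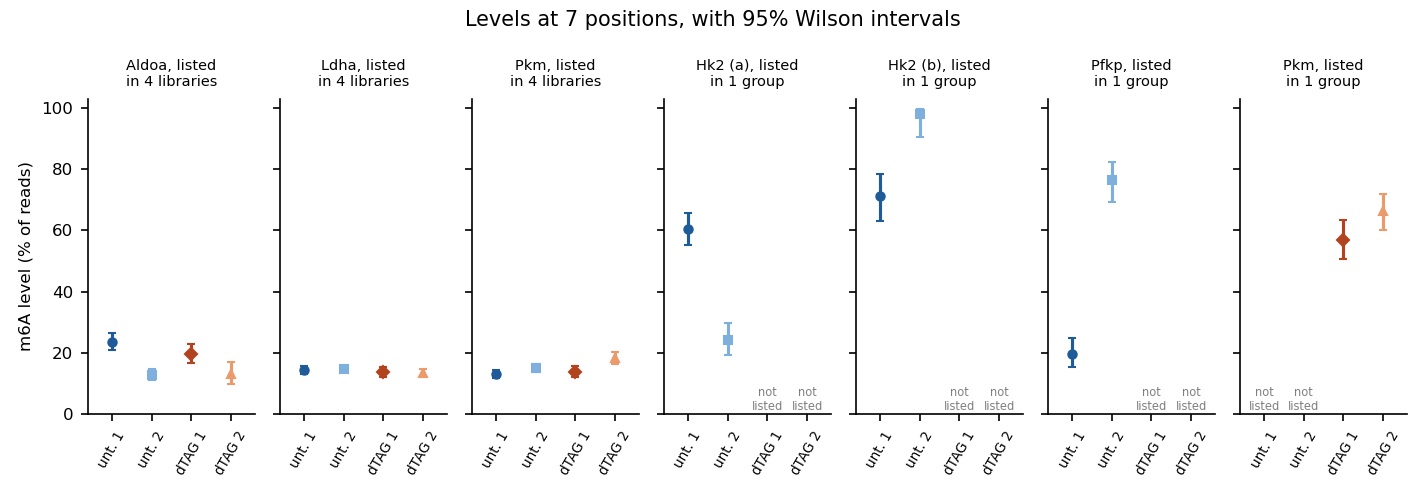
m6A level in percent (vertical axis) with 95% Wilson intervals at 7 positions in each library (horizontal axis): the 3 listed in every library, then the 4 shared by both libraries of a group with 50 or more reads in each and a mean level of 40% or more. The positions of Aldoa, Ldha and Pkm listed in every library lie between 12.7% and 23.5%, and those of Hk2 and Pfkp listed in the untreated group differ between its replicates.

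The main test took only positions that every library listed with 20 or more reads, which favours positions that stayed listed. Of the 835 glycolytic positions these were the 3 of Aldoa, Ldha and Pkm given above. In a quasi-binomial model of A and G reads with limma's moderated dispersion, 0 of 3 passed an adjusted p of 0.05, and 0 of 3 had an unadjusted p under 0.05. The adjusted p-values of that model were 0.997 for Aldoa, 0.812 for Ldha and 0.877 for Pkm. For Aldoa the fitted change was near 0, at 0.0115 in log odds, while the difference of the means was -1.75 percentage points. Over all genes the same model called 53 of 2321 positions (2.28%), of which 51 were lower with dTAG13. With reads summed per gene it called 46 of 1016 genes (4.53%), all lower, and 0 of the 3 glycolytic genes tested. Limma on log2 odds also called 0 of 3, both for positions and for genes, whereas Fisher's exact test on reads summed within a group, which leaves out the spread between replicates, called Pkm among the genes (adjusted p = 0.0448, higher with dTAG13). The summed level of Pkm was that of its 1 tested position, for which Fisher's exact test gave an adjusted p of 0.0752 over the 2321 positions.

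Gene coverage was deposited as 1 value per gene and library, which behaves as a mean read depth over positions and is not scaled to library depth. As deposited it was lower in both dTAG13 libraries than in both untreated ones for 6 of 10 glycolytic genes, Pfkl, Aldoa, Pgk1, Eno1, Pkm and Ldha, against 28.1% of all genes. Pkm had coverages of 2895 and 3076 untreated and 1506 and 2006 with dTAG13. Pfkl had 545 and 571 against 266 and 376. Ldha had 3775 and 4058 against 1916 and 3029. In these 3 genes the highest dTAG13 library was clearly below the lowest untreated one.

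Aldoa had coverages of 1072 and 1181 untreated and 628 and 769.9 with dTAG13, and Pgk1 4437 and 4911 against 2659 and 3549. Eno1 had 130.3 and 186 against 88.2 and 129, so its groups were nearly touching. The groups overlapped for Gapdh, at 796 and 699 untreated and 435 and 841 with dTAG13. They overlapped also for the 3 genes with many high-level positions. Hk1 had 94.7 and 95.0 against 79.0 and 189, Hk2 123 and 147 against 105 and 158, and Pfkp 61.0 and 74.3 against 56.6 and 87.4.

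**Figure D4:**
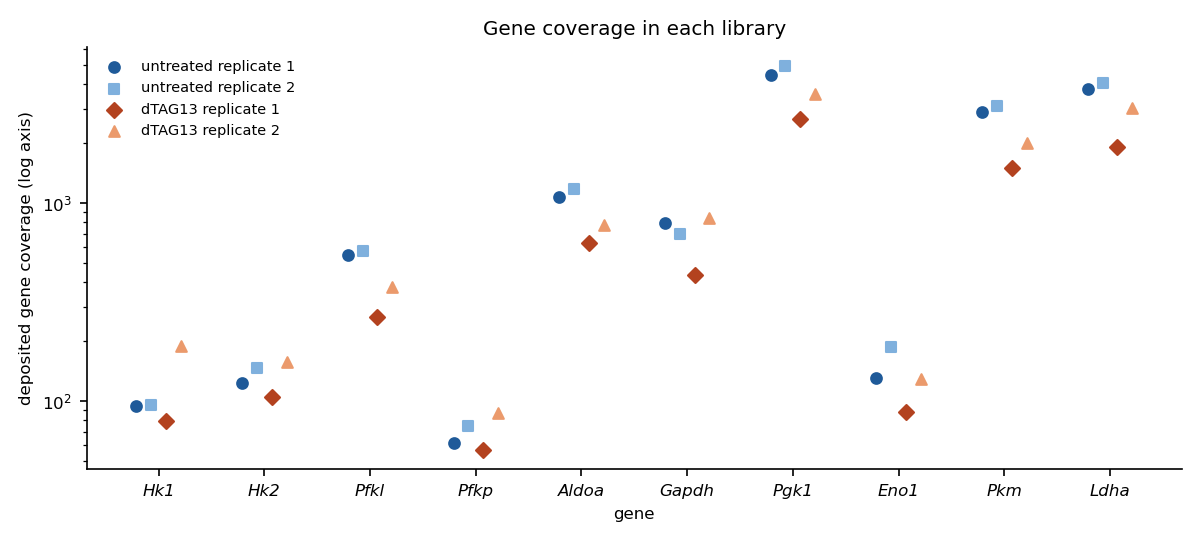
Deposited gene coverage on a log axis (vertical) of each glycolytic gene (horizontal axis) in each of the 4 libraries. Points of Pfkl, Aldoa, Pgk1, Eno1, Pkm and Ldha are lower in both dTAG13 libraries, and those of Hk1, Hk2, Pfkp and Gapdh overlap between the groups.

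After each library was centred on the median log2 coverage of all genes listed in every library, limma called 0 of 12520 genes at an adjusted p of 0.05 (0.0%), and so 0 of the 10 glycolytic genes. At an unadjusted p under 0.05 limma gave 1595 genes, of which 1044 (8.34% of all genes) were lower, and 5 of the 10 glycolytic genes, all lower. The log2 changes of those 5 in limma were -0.74 ± 0.20 for Pfkl (SE; adjusted p = 0.363), -0.70 ± 0.20 for Pkm (0.363), -0.62 ± 0.21 for Ldha (0.364), -0.61 ± 0.20 for Aldoa (0.364) and -0.52 ± 0.20 for Pgk1 (0.375). Eno1 was at -0.46 ± 0.24, Gapdh at -0.22 ± 0.26, Hk2 at 0.02 ± 0.21, Pfkp at 0.15 ± 0.21 and Hk1 at 0.45 ± 0.31. The 10 genes had a median log2 change of -0.49, against -0.07 over all genes. Left uncentred, the median of all genes was -0.15 and that of the 10 genes -0.57.

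Change in coverage moved with coverage itself over the whole table. Genes with a mean coverage of 500 or more had a median log2 change of -0.36, and 89.8% of these 723 genes were below 0, whereas genes between 50 and 100 had a median of 0.07. When each gene was centred on genes of like coverage, in 5 ranges chosen after the data were seen, the median of the glycolytic genes was -0.20 and 0 of 10 had an unadjusted p under 0.05 in limma. On that scale Gapdh was at 0.15, so its sign turned.

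**Figure D5:**
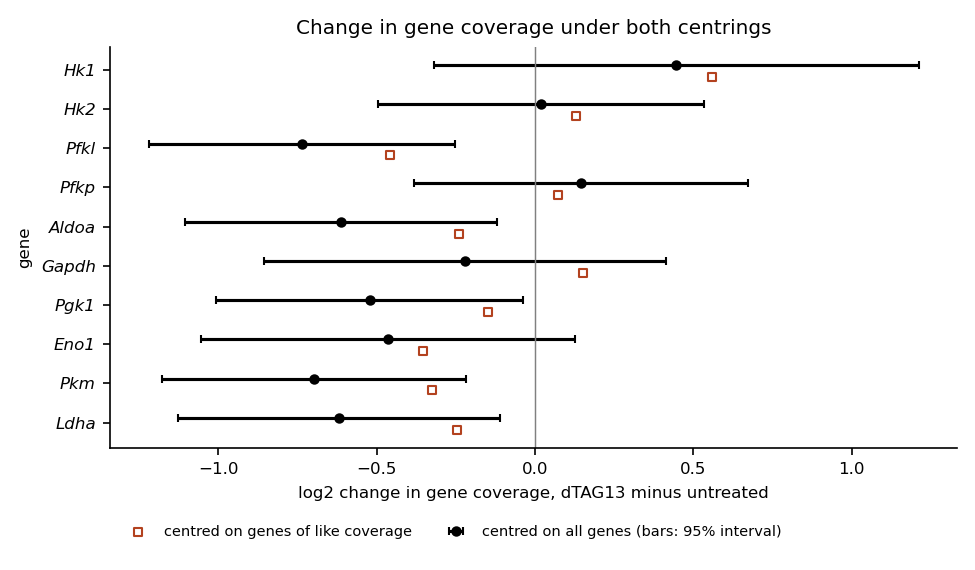
Log2 change in gene coverage, dTAG13 minus untreated (horizontal axis), of each glycolytic gene (vertical axis). Filled points with 95% intervals are centred on all genes and open squares on genes of like coverage, where Pfkl, Aldoa, Pgk1, Pkm and Ldha lie closer to 0.

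Near-identical genes make some of these coverages uncertain, since the sources used here do not say how reads fitting several places were counted. Eno1b, a copy of enolase 1, had coverages of 1436 and 1844 untreated and 806 and 861 with dTAG13, many times those of Eno1. Aldoart2, an aldolase A retrogene, had 1404 and 1989 against 648 and 1062. Pseudogenes of Aldoa, Gapdh, Ldha and Pgk1 were listed too, so values of these genes and of Eno1 may be split with their copies.

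The conversion rate was high in every glycolytic gene and library. It lay between 93.5% (Hk1, untreated replicate 1) and 97.8% (Pfkp, dTAG13 replicate 1). The mean was higher with dTAG13 by 0.0445 to 1.55 percentage points, with a median of 0.439. Over all genes the median rise was larger, at 0.666, so a rise was not particular to these genes. Both dTAG13 libraries were above both untreated ones in 3 of 10 genes, Hk1, Pgk1 and Pkm, against 40.9% of all genes. Hk1 went from 93.5% and 95.1% to 96.1% and 95.4%, and Pkm from 95.4% and 95.9% to 96.2% and 96.3%. In limma on log2 odds 0 of 12520 genes passed an adjusted p of 0.05 (0.0%), 1540 had an unadjusted p under 0.05, and of the 10 glycolytic genes 0 did, with adjusted p-values of 0.570 to 0.989.

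Of the other glycolysis genes, 14 of 15 were listed in every library, with a median log2 change in coverage of -0.21 and 10 of 14 below 0, against 56.7% of all genes. In limma 0 passed the adjusted threshold, and 3 lower and 1 higher had an unadjusted p under 0.05. They ran from -0.76 ± 0.20 for Tpi1, the triose phosphate isomerase, to 0.55 ± 0.22 for Bpgm, which makes bisphosphoglycerate. Tpi1 had coverages of 1301 and 1274 untreated and 581 and 891 with dTAG13, and Bpgm 84.1 and 98.9 against 119.7 and 133. Both separated the groups, in opposite directions, but both were picked as the extremes of the list. Over all genes, coverage separated the groups as lower in 28.1% and as higher in 10.1%.

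Of the genes for transport and the fates of pyruvate, 12 of 14 were listed in every library, with a median of -0.06 and 6 of 12 below 0. They ran from -0.52 ± 0.20 for the glucose transporter Slc2a1 to 0.62 ± 0.35 for G6pdx, the first enzyme of the pentose phosphate pathway. Of the regulators, 7 of 8 were listed in every library, with 4 of 7 below 0, from -0.70 ± 0.30 for Myc to 0.47 ± 0.21 for Mycn. In limma 0 genes of these lists passed the adjusted threshold, and 1, Slc2a1, had an unadjusted p under 0.05 (adjusted p = 0.384).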

How the data were processed

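One table per library was used, with 2 untreated and 2 dTAG13 libraries. The deposited read counts per position (A and G reads, and A reads) and the deposited fractions (level, conversion rate) were taken as given, and the level was recomputed from the counts. Gene coverage is a deposited signal, and the authors' p-values were read only to find the listing limit. Aligner, caller and position filters are not given in the sources used here. The submitters' processing notes name mm10, yet 154 of 835 positions fell inside the GRCm38 intervals of their RefSeq genes (10 of 10 symbols matched). The build is therefore unsettled: coordinates are as listed, and exon, intron and UTR were not assigned.

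The members and lists were chosen with earlier results of these data known. Site and gene levels were fitted with a quasi-binomial model (limma 3.58.1 squeezeVar, dispersion of 1 or more), and log2 coverage and log2 odds of conversion with limma in R 4.3.3. P-values were Benjamini-Hochberg adjusted over the whole table, and only rows of these genes are given. Counts per library were compared by exact two-sided permutation. The models were tested on simulated data. The site model recovered 92.5% of 200 changed positions among 2321 at a constant dispersion of 1.5, and 27.0% when the dispersion grew with reads. The constant-dispersion setting was added after the other had given low recovery. The gene model recovered 100% of 200 among 12520. Recovery at the sizes of change seen in the glycolytic genes was not tested, for positions or for genes.

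Positions named were those listed in every library, then those shared by both libraries of a group with 50 or more reads in each. As 40 met the latter, those with a mean level of 40% or more were named. Of other pathway genes, the lowest and highest change per list were named. Alternatives covered read and level limits, other tests, normalisations, the replicate block and leaving out each library.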

Additional observations from a re-analysis of the deposited data

How the results depend on the processing

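Among the alternatives for counts and calls, 52 kept the direction and call, and 4 did not. Most of the 52 were calls of 0 glycolytic members that stayed at 0. For coverage and conversion rate the main fits called 0 of 12520 genes, so little else was possible. A limit of 10 on mean coverage left out no gene, as the lowest coverage was 15. The tally is therefore not a measure of robustness. The ratio of listed positions (0.899) turned to 1.26 when divided by all positions inside genes and ranged from 0.804 to 1.02 with each library left out, above 1 without untreated replicate 1. The ratio of positions at 40% or more (0.632) ranged from 0.54 to 0.761 with each library left out, and was highest without untreated replicate 1. Recovery with dTAG13 (0.750) was 0.250 at a level of 40% or more. Fisher's exact test on summed reads called 1 glycolytic gene instead of 0.

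Among those for single positions and genes, 106 kept the direction and call and 11 changed sign, all without passing the threshold. The Aldoa position (0.0115 log odds) was at -0.0955 by limma, at -0.142 with the replicate block, and from -0.383 to 0.363 with each library left out (-0.329 without dTAG13 replicate 1). The Pkm position (0.149) ranged from -0.0193, without dTAG13 replicate 2, to 0.304. Coverage of Hk2 (log2 0.02) was -0.0635 uncentred and ranged from -0.0801, without untreated replicate 1, to 0.117, with -0.0661 without dTAG13 replicate 2. Coverage of Gapdh (-0.22) ranged from -0.482 to 0.0403 with each library left out, and was 0.11 after quantile normalisation and 0.15 against genes of like coverage. Of the 5 glycolytic genes at an unadjusted p under 0.05, 0 remained so without either untreated library and 0 after quantile normalisation. Over all genes Fisher's exact test called 531 positions and 428 genes, and without any one library 0 of either, against 53 and 46. With the replicate block the model called 0 positions and 0 genes. Same-numbered libraries did not deviate together (correlations of 0.0385, 0.00227 and 0.00829). No pairing by number was seen, but noise in single libraries could hide one, so this check cannot exclude it. The causes were not tested.

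In fits with 2 libraries a group, a change in a listed position was tested only if all 4 tables list it, as 3 of 835 glycolytic positions were. Fits that left out a library also took positions listed in all remaining libraries, but with a single library in that group. A missing listing is not a level of 0. Groups of 2 allow no test for outlying libraries.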

Other observations

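Within the spans of the 10 glycolytic genes and on their strand, the tables also list positions that they assign to no gene, 355 in all. The untreated libraries listed 112 and 114 of them and the dTAG13 libraries 47 and 101, a ratio of 0.655. All positions outside genes numbered 74866 and 78288 untreated and 41295 and 61134 with dTAG13, a ratio of 0.669, so the count in these spans lay near that background. Of them, 71 and 60 were at 40% or more untreated, and 31 and 67 with dTAG13. Pkm held the most, at 46 and 39 positions untreated and 18 and 33 with dTAG13, followed by Eno1 at 14 and 22 against 13 and 18. None of the 355 was listed in all 4 libraries. Both untreated libraries shared 9 and both dTAG13 libraries shared 0. For these levels and this sharing, no background over all positions outside genes was computed, so neither is read as particular to these spans.

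The 3 listed in 3 libraries were in the spans of Aldoa and Ldha, and are named after their values were seen. Aldoa position 126398129 was at 11.5% (21 of 182 reads) and 11.8% (16 of 136) untreated and 10.7% (13 of 122) in dTAG13 replicate 2. Aldoa position 126398086 was at 17.9% (15 of 84 reads) and 18.3% (13 of 71) untreated and 25.4% (18 of 71) in dTAG13 replicate 2. Ldha position 46495344 was at 34.2% (13 of 38 reads) and 21.9% (16 of 73) untreated and 24.4% (11 of 45) in dTAG13 replicate 1.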
